A study of Homo sapiens with 8 samples.

Results

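The heat shock factors HSF1, HSF2 and HSF4 and their binding protein HSBP1 were described across 8 RNA-seq libraries of the human lung adenocarcinoma cell line PC9 and its subline PC9-BrM3. The 4 genes were chosen by name from 63677 annotated genes. No measured value was in the rule, but earlier results of these data were known when they were chosen. PC9 is an established EGFR-mutant line, and the series' design text ties the comparison of parental PC9 with PC9-BrM3 to brain metastasis. The libraries fell into 4 groups of 2. PC9 parental and untransduced PC9-BrM3 were grown for 48 h as sub-confluent monolayers. The shNTC and shHSF1 groups were PC9-BrM3 cells with a lentiviral, doxycycline-inducible Tet-pLKO hairpin, a non-target control or clone 7480 against HSF1. Both of these were selected in puromycin for 5 days and given doxycycline at 500 ng/mL for 48 h, so the control also carried the vector, the selection and the drug. HSF1 was targeted by 1 hairpin, so loss of HSF1 and off-target effects of that sequence cannot be told apart. Whether the 2 libraries of a group came from separate cultures is not stated in the labels. The p-values therefore measure the spread between these libraries, which may be technical.

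Heat shock factors are transcription factors that bind repeated GAA units, called heat shock elements, in front of chaperone genes. HSF1 is held inactive by chaperones in unstressed cells and forms trimers that enter the nucleus when unfolded protein draws those chaperones away. HSF2 works in development and can form mixed trimers with HSF1, HSF4 is best known from the eye lens, and HSBP1 binds the trimerization domain of HSF1 and dampens it.

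Counts assigned to genes ran from 33550140 to 56715336 per library. Per the file headers, the untransduced libraries came from lane 7 and the transduced ones from lane 1. Each comparison lay within a lane, and no test was made across lanes. The PC9-BrM3 pair stood apart: 12.3% of genes differed over 2-fold between its libraries, against 1.91% to 3.18% in the other 3 pairs. All 6 epithelial markers were present (summed level 4297 to 7468 CPM, that is counts divided by TMM-scaled library size). The fibroblast, leukocyte and neural lists summed to at most 1.24 CPM. The 3 endothelial markers summed to 19.5 to 55.9 CPM, nearly all of it CDH5, while PECAM1 was at 0 in all libraries. The endothelial sum was lower in PC9-BrM3 than in PC9 parental (means 29.2 and 54.1 CPM) and lower in shHSF1 than in shNTC (22.2 and 41.3 CPM). Its part in the results was not tested.

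HSF1 was the target of the hairpin and checks the labels. It had 178 and 184 CPM in the shNTC libraries and 15.6 and 13.5 CPM in the shHSF1 libraries, from 8638, 6749, 606 and 481 counts. Both shHSF1 libraries lay far below both controls, at 8.17% of the control level. The log2 fold change was -3.61 ± 0.08 (SE, n = 2 per group; adjusted p = 2.66e-08 in edgeR's quasi-likelihood test with Benjamini-Hochberg adjustment; 95% interval -3.80 to -3.43), and HSF1 passed under all 10 alternatives. Untransduced cells held 47.0 and 50.01 CPM in PC9 parental and 54.6 and 52.7 CPM in PC9-BrM3. On this TMM scale both subline libraries lay above both parental ones, yet the log2 difference of 0.15 ± 0.14 (SE) did not pass (edgeR adjusted p = 0.531; 95% interval -0.20 to 0.50). In TPM, which uses exon length and no TMM factors, the groups overlapped. PC9 parental had 34.3 and 38.7 TPM and PC9-BrM3 41.8 and 25.6 TPM.

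HSF2, the partner of HSF1 in mixed trimers, changed little beside it. Its level was 33.2 and 33.4 CPM in shNTC and 27.6 and 28.9 CPM in shHSF1. The shHSF1 libraries lay below the controls without overlap, at 86.1% of their level. HSF2 fell by 0.22 ± 0.08 on the log2 scale (SE, n = 2 per group; edgeR adjusted p = 0.0468). The call is marginal: it was lost with DESeq2 (adjusted p = 0.104), in a fit of all 8 libraries (edgeR adjusted p = 0.154) and whichever library was left out (edgeR adjusted p from 0.0772 to 0.189). Leaving out a library leaves its group with 1, and the spread then comes from the other group's pair alone, on the assumption that the lone library varies like it. In the untransduced cells HSF2 had 32.6 and 30.4 CPM in PC9 parental and 31.7 and 30.3 CPM in PC9-BrM3. These groups overlapped, with a log2 difference of -0.01 ± 0.15 (SE; edgeR adjusted p = 0.964; 95% interval -0.38 to 0.36).

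HSF4 had the fewest counts of the 3 factors in every library. Its level was 5.95 and 8.39 CPM in shNTC and 6.86 and 4.99 CPM in shHSF1, so the groups overlapped. Its log2 difference was -0.24 ± 0.20 (SE, n = 2 per group; edgeR adjusted p = 0.364), and the 95% interval of -0.69 to 0.21 leaves room for a change in either direction. PC9 parental held 2.89 and 2.12 CPM and PC9-BrM3 3.17 and 1.83 CPM. The spread between replicates exceeded the difference between these groups (log2 0.02 ± 0.36, SE; edgeR adjusted p = 0.983). HSF4 rested on 61 to 308 counts per library, and its 95% interval in the subline comparison, -0.87 to 0.91, was the widest of the members.

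HSBP1, the small coiled-coil protein that binds HSF trimers, had the highest count of the members in PC9 parental. With the hairpins it stood at 88.3 and 82.2 CPM in shNTC and at 64.9 and 71.6 CPM in shHSF1. The groups did not overlap, and HSBP1 fell by 0.30 ± 0.07 on the log2 scale (SE, n = 2 per group; edgeR adjusted p = 0.00829). That call was lost without shNTC replicate 1 (edgeR adjusted p = 0.0561), without shHSF1 replicate 1 (0.071) and in a fit of all 8 libraries (0.104). HSBP1 had 138 and 146 CPM in PC9 parental and 107 and 88.2 CPM in PC9-BrM3. Both subline libraries lay below both parental ones, with a log2 difference of -0.53 ± 0.16 (SE; 95% interval -0.93 to -0.13), which did not pass (edgeR adjusted p = 0.114). Over the 10 alternatives HSBP1 was called in 4, and the estimate stayed below 0 in all of them (log2 -0.68 to -0.41). It did not pass with DESeq2 (adjusted p = 0.0735), other scaling factors (edgeR adjusted p = 0.109 and 0.111), the replicate block (0.155) or without either PC9 parental library (0.614 and 0.729). It passed in a fit of all 8 libraries (edgeR adjusted p = 0.0172) and with no count filter (0.0335). It also passed without PC9-BrM3 replicate 1 or 2 (edgeR adjusted p = 7.43e-06 and 0.00294), fits whose spread is that of the closer PC9 parental pair alone.

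Of the 4 members, 3 were called lower in the knockdown, where 45.7% of 16840 tested genes were called in either direction and 23.5% lower. None had an estimate above 0. HSF1 is the target, and with so many genes called, the 2 calls among the other 3 members do not set them apart. The same 3 members had groups that did not overlap, as for 73.2% of all tested genes. In all genes, 8831 had an unadjusted p under 0.05, and DESeq2 called 6605. In the subline comparison 0 members were called with edgeR, against 7.14% of 17372 genes, and DESeq2 also called 0, against 2203 genes. At an unadjusted edgeR p under 0.05 there was 1 member, HSBP1 (0.0171), beside 4368 of all tested genes. HSF1 and HSBP1 were the members whose subline groups did not overlap in TMM-scaled CPM, as for 59% of all tested genes. In TPM the HSF1 groups overlapped.

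**Figure D1:**
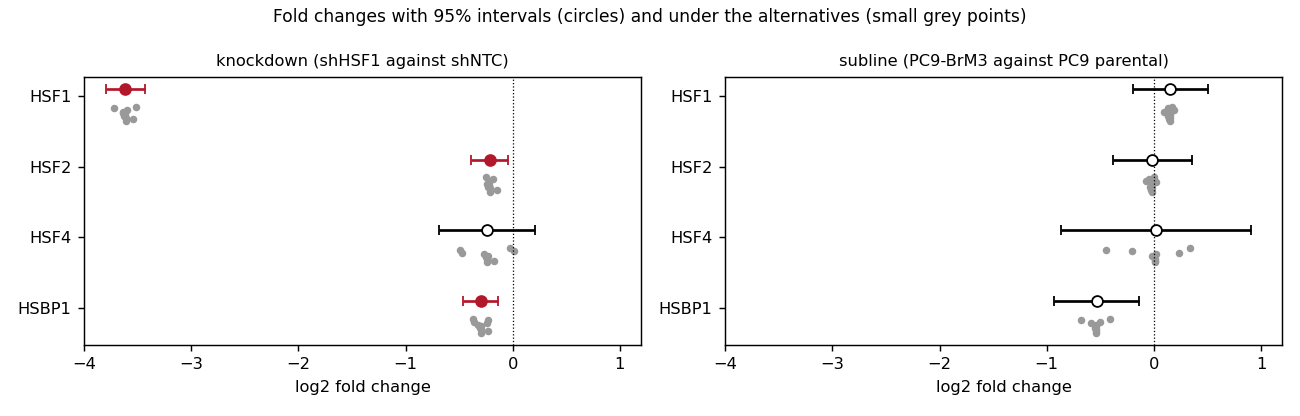
log2 fold changes of the 4 members in the knockdown (left) and subline (right) comparisons, on 1 horizontal scale. Circles with bars are estimates with 95% intervals, red and filled where the adjusted p was under 0.05, and grey points are the 10 alternatives of each: HSF1 in the knockdown lies near -3.61 in all of them, while HSF4 crosses 0.

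Levels of different genes are compared per length, as RPKM (CPM on the scale of all 8 libraries, divided by annotated exon length in kilobases). In PC9 parental the order was HSBP1 (17.4 ± 0.664 RPKM), HSF2 (11.7 ± 0.577), HSF1 (9.78 ± 0.435) and HSF4 (0.556 ± 0.12; SD, n = 2 for each). In PC9-BrM3 the levels were 11.96 ± 1.62 RPKM for HSBP1, 11.5 ± 0.372 for HSF2, 10.8 ± 0.268 for HSF1 and 0.556 ± 0.21 for HSF4 (SD, n = 2 for each). HSBP1 overlapped HSF2 and also HSF1 there. In shNTC HSF1 led with 36.5 ± 0.768 RPKM, before HSF2 (12.3 ± 0.0495), HSBP1 (10.45 ± 0.529) and HSF4 (1.59 ± 0.383; SD, n = 2 for each). In shHSF1 HSF2 led with 10.45 ± 0.342 RPKM, before HSBP1 (8.36 ± 0.578), HSF1 (2.93 ± 0.298) and HSF4 (1.31 ± 0.293; SD, n = 2 for each).

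**Figure D2:**
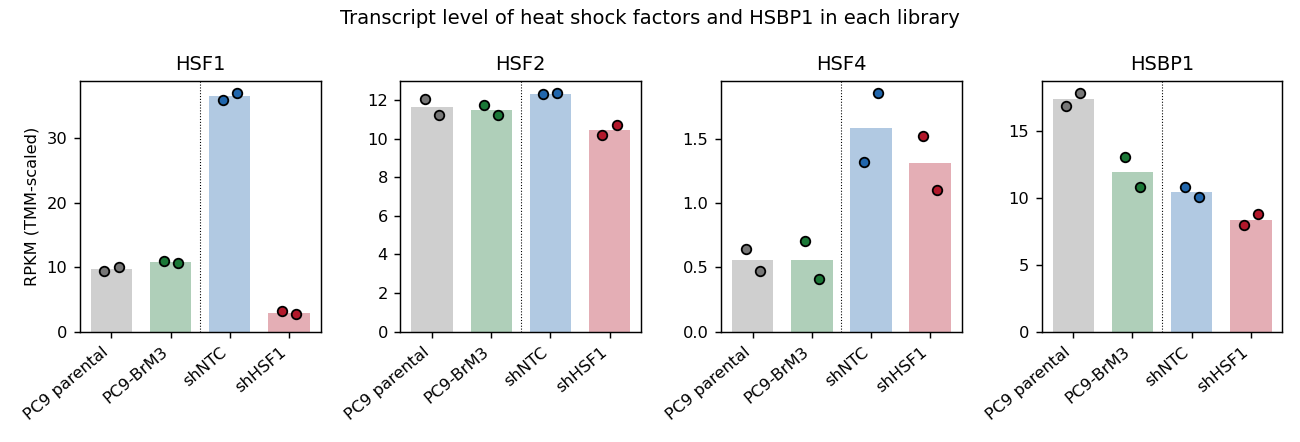
RPKM of each member in each library; points are the 2 libraries of a group, bars their mean, and the dotted line separates untransduced from transduced libraries. HSF1 spans from 2.93 RPKM in shHSF1 to 36.5 in shNTC, while the HSF2 group means stay between 10.45 and 12.3.

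The order depends on the length used. In the annotation of the files HSF1 (ENSG00000185122) spans chromosome 8 from 145515280 to 145538385 in GRCh37 with 4957 exon bases. HSF2 (ENSG00000025156) lies on chromosome 6 from 122720691 to 122754264 with 2702 exon bases, and HSBP1 (ENSG00000230989) on chromosome 16 from 83841448 to 83853342 with 8157. HSF4 (ENSG00000102878) lies on chromosome 16 from 67197288 to 67203848, all 4 on the plus strand. Of its 4507 exon bases, 2009 (44.6%) are shared with FBXL8 and ENSG00000265690 on the same strand, and reads there are ambiguous and not counted by default. Over the 2498 bases of its own, HSF4 stood at 1.00 RPKM in PC9 parental, 2.87 in shNTC and 2.37 ± 0.529 in shHSF1 (SD, n = 2), where it overlapped HSF1. With the median length of coding transcripts in GENCODE the order changed in all 4 groups. That length was 2105 bases for HSF1, 2549 for HSF2, 4902 for HSBP1 and only 617 for HSF4. The counts were taken over annotated exons, so the HSF4 level by this length may be inflated. HSF1 stood above HSF2 in PC9 parental (23.0 against 12.4 RPKM), and in PC9-BrM3 it led with 25.5 RPKM, before HSBP1 (19.9) and HSF2 (12.2). In shHSF1 HSBP1 led with 13.9 RPKM, before HSF2 (11.1), HSF4 (9.60) and HSF1 (6.90). In shNTC HSF1 led with either length (86.0 RPKM with that of GENCODE), and HSBP1 (17.4) came before HSF2 (13.1). Each member's comparison between groups is unaffected by length.

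The makeup of the factor pool followed HSF1. By exon length, of the summed RPKM of HSF1, HSF2 and HSF4, HSF1 made up 44.5% ± 2.51 in PC9 parental and 47.3% ± 0.587 in PC9-BrM3 (SD, n = 2 each). HSF2 made up 53.0% and 50.2% of those pools. With shNTC, HSF1 held 72.4% ± 0.2 and HSF2 24.5% ± 0.484. With shHSF1, they held 19.9% ± 1.69 and 71.2% ± 3.53 (SD, n = 2 each). By exon length HSF1 therefore stood at 2.92 and 2.996 times HSF2 in the shNTC libraries and at 0.308 and 0.254 times HSF2 in the shHSF1 libraries. HSF4 had a share of 3.14% ± 0.684 with shNTC and of 8.93% ± 1.84 with shHSF1 (SD, n = 2 each), while its own fold change did not pass the test. The shares depend on the length used, that of HSF4 the most. Over the bases of its own, HSF4 had 5.53% ± 1.17 with shNTC and 15.01% ± 2.90 with shHSF1. With GENCODE lengths it had 10.4% ± 2.09 and 34.6% ± 4.66, beside 11.8% and 40.4% for HSF2 (SD, n = 2 each). Those HSF4 shares rest on a length of 617 bases, against 2549 for HSF2, and may be inflated. HSF1 had 77.7% ± 1.64 with shNTC, and 25.2% and 24.8% in the shHSF1 libraries. HSF4 and HSF2 overlapped there with shHSF1. HSF1 then stood at 6.58 times HSF2 with shNTC and 0.624 times with shHSF1, and in PC9 parental it held 58.4% against 31.3% for HSF2. The fall of the HSF1 share from shNTC to shHSF1 was present with each length. By exon length, the summed level was 50.5 ± 1.2 RPKM with shNTC and 14.7 ± 0.249 with shHSF1, against 22.0 ± 0.261 in PC9 parental and 22.9 ± 0.85 in PC9-BrM3 (SD, n = 2 each). HSBP1 relative to that sum was 0.207 in shNTC and 0.569 in shHSF1, and 0.791 in PC9 parental against 0.522 in PC9-BrM3. In bulk RNA, fewer cells with a transcript and less of it per cell cannot be told apart.

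**Figure D3:**
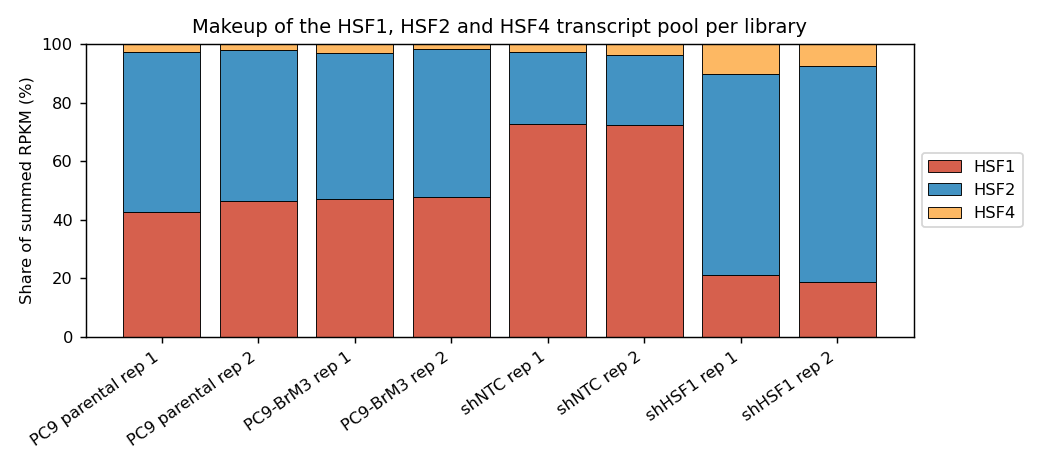
Share of HSF1, HSF2 and HSF4 in their summed RPKM in each library, by annotated exon length. HSF1 makes up 72.3% and 72.5% in the shNTC libraries and 18.7% and 21.1% in the shHSF1 libraries, where HSF2 makes up the largest share.

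The HSF1 level of the control hairpin cells lay above that of the untransduced cells they derive from. The ratio of shNTC to PC9-BrM3 was 3.38 for HSF1, 1.07 for HSF2, 2.86 for HSF4 and 0.874 for HSBP1. HSF1 in shHSF1 was 27.1% of its level in PC9-BrM3, against 8.17% of its level in shNTC. These ratios cross lanes, transduction, selection and doxycycline, which cannot be told apart, and they were not tested. Of 18122 expressed genes, 10.8% had a ratio over 2, and HSF1 stood at the 95.9th percentile and HSF4 at the 93.2nd. The ratio rose with transcript GC content (Spearman 0.487 across 17633 genes, which are not independent replicates). HSF1 and HSF4 have GC contents of 64.2% and 63.5%, and HSF2 and HSBP1 of 40.9% and 45.8%. The part of GC content in the ratio was not tested.

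Genes next to HSF1 had high ratios too. Within 250 kb of HSF1, a distance chosen after values were seen, 18 of 21 genes with a symbol were tested in both comparisons. All 18 were higher in shNTC than in PC9-BrM3, by a median of 4.61 times (1.06 to 10.3), where 51.1% of all expressed genes were higher and the median ratio was 1.01. Their GC contents ran from 62.1% to 71.1%, against a median of 49.3% over all genes, and the part of GC content was not tested. Around HSF4, on the same distance, 15 of 17 genes were higher, by a median of 1.32 times, with GC contents from 40.5% to 67.1%. With shHSF1, 12 of the 18 genes around HSF1 rose and 1 fell, where 22.2% of all tested genes rose and 23.5% fell, and their median log2 fold change was 0.40. RECQL4, a DNA helicase, was the 1 that fell (log2 -0.43 ± 0.07, SE; edgeR adjusted p = 0.000908). DGAT1, which makes triglycerides and lies 1569 bases from HSF1 on the opposite strand, had 24.4 and 25.3 CPM in shNTC and 34.3 and 31.6 CPM in shHSF1. It rose by log2 0.43 ± 0.08 (SE, n = 2 per group; edgeR adjusted p = 0.00235), against the fall of HSF1. MROH1, the nearest gene with a symbol on the other side at 198437 bases, rose by 0.25 ± 0.08 (SE; edgeR adjusted p = 0.0346). That call was lost with DESeq2 (adjusted p = 0.0743) and without any 1 library. All other genes with a symbol in this window lay on the side of DGAT1, so MROH1 alone stood for the other side. Genes without a symbol were left out of this choice, and such a gene may lie closer. An unnamed gene on the opposite strand, ENSG00000254690, shares 133 exon bases with HSF1 and held 11 to 68 counts per library. Counting was by strand, which keeps the reads of both genes apart.

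**Figure D4:**
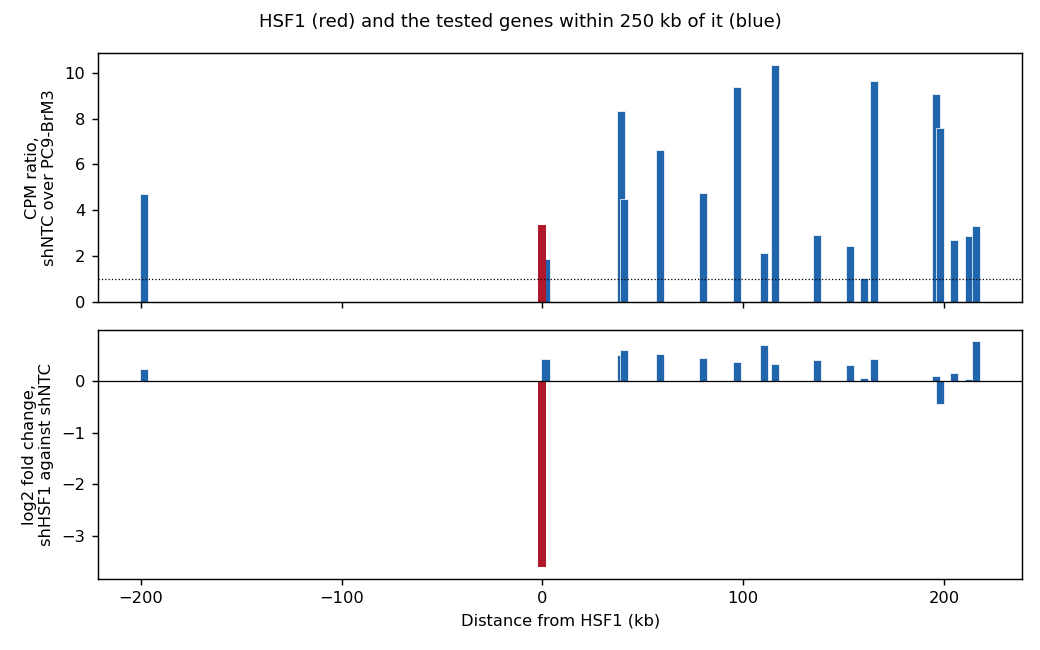
CPM ratio of shNTC to PC9-BrM3 (top) and log2 fold change of shHSF1 against shNTC (bottom), by distance in kb. HSF1 is red, and the 18 genes with a symbol within 250 kb that were tested in both comparisons are blue. HSF1 has a ratio of 3.38 within a range of 1.06 to 10.3, and a fold change of -3.61 where its neighbours have a median of 0.40.

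Beside HSF2, SERINC1, a membrane protein that carries serine into lipids, had 229 and 225 CPM in shNTC and 321 and 292 CPM in shHSF1. It rose by log2 0.46 ± 0.06 (SE, n = 2 per group; edgeR adjusted p = 0.000266), opposite to HSF2. PKIB, an inhibitor of protein kinase A farther from HSF2 and chosen after its values were seen, fell in the subline by log2 2.14 ± 0.16 (SE; edgeR adjusted p = 0.00405), where HSF2 did not pass the test. In the knockdown PKIB fell by log2 0.61 ± 0.09 (SE; edgeR adjusted p = 0.00054), in the direction of HSF2. Beside HSF4, TRADD, FBXL8 and NOL3 were not called in either comparison. Beside HSBP1, MLYCD was not called in either, and CDH13-AS2 held 4 and 7 counts in PC9 parental and 0 in the other 6 libraries. CDH13, a cadherin that ends 11244 bases before HSBP1 and was chosen after its values were seen, had 1177 and 1196 counts in PC9 parental and 0 to 5 in the others.

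The other named relatives ranged from absent to HSBP1L1, which had 3168 counts over all libraries against 1545 for HSF4. HSF5 and HSFX1 had 1 count each and HSFX2 had 0 in all 8 libraries together. HSBP1L1, a paralog of HSBP1, had 7.37 and 7.16 CPM in shNTC and 9.99 and 8.16 CPM in shHSF1, a log2 difference of 0.34 ± 0.14 (SE, n = 2 per group) that did not pass (edgeR adjusted p = 0.0639). HSF2BP, which binds HSF2 and acts in meiotic recombination, had 1.67 and 1.80 CPM in shNTC and 2.70 and 2.69 CPM in shHSF1. It rose by log2 0.66 ± 0.19 (SE, n = 2 per group; edgeR adjusted p = 0.0188), but not with DESeq2 (adjusted p = 0.102) or without any 1 library (edgeR adjusted p from 0.0561 to 0.0936). Neither was called in the subline.

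The circuit around the factors was read from 4 lists, of chaperones that hold HSF1 inactive, enzymes that modify HSF1 or HSF2, their nuclear partners and textbook targets. These lists too were chosen with earlier results of these data known. All tested genes had a median log2 fold change of 0.01 in each comparison, and in the knockdown 22.2% of them rose and 23.5% fell. Of the 17 chaperones, 10 fell and 0 rose in the knockdown (median -0.35). HSP90AA1, the inducible HSP90, had 6648 and 6622 CPM in shNTC and 2873 and 3203 CPM in shHSF1. It fell by log2 1.10 ± 0.07 (SE, n = 2 per group; edgeR adjusted p = 1.24e-06). HSP90AB1, the constitutive HSP90, fell by 0.64 ± 0.06 (edgeR adjusted p = 1.79e-05). FKBP5, a co-chaperone of HSP90 and steroid receptors, had 20.6 and 21.6 CPM in shNTC and 1.88 and 2.07 CPM in shHSF1, a log2 change of -3.39 ± 0.13 (SE; edgeR adjusted p = 1.10e-07). No chaperone was higher even at an unadjusted edgeR p under 0.05 (0 of 17), and DESeq2 called 0 higher. With upper-quartile factors 1 was called higher, CCT8, a subunit of the TRiC chaperonin (log2 0.14, edgeR adjusted p = 0.0484, against 0.08 and 0.295 with TMM).

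Of the 35 textbook targets 33 were tested, and 24 fell and 2 rose (median -0.42). The list shares 11 genes with the chaperones. SERPINH1, the collagen chaperone HSP47, had 243 and 227 CPM in shNTC and 56.9 and 66.8 CPM in shHSF1. It fell by log2 1.90 ± 0.08 (SE, n = 2 per group; edgeR adjusted p = 2.08e-07), and both shHSF1 libraries lay well below the controls. HSPA4L and HSPH1, both HSP110 nucleotide exchange factors, fell by 1.42 ± 0.06 and 1.27 ± 0.07 (SE; edgeR adjusted p = 2.24e-07 and 9.94e-07). The 2 that rose were HSPB8, a small heat shock protein of chaperone-assisted autophagy (log2 0.64 ± 0.13; edgeR adjusted p = 0.00306), and DNAJB6, an HSP40 (log2 0.35 ± 0.06; edgeR adjusted p = 0.00147). HSPA1A and HSPA1B are nearly identical copies, so their split counts are uncertain.

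The enzymes that modify HSF1 or HSF2 went both ways: of 30, 10 rose and 9 fell (median 0.02). Among kinases, AKT1 rose by log2 0.47 ± 0.06, MAP2K2 (MEK2) by 0.39 ± 0.06 and GSK3A by 0.39 ± 0.07 (SE; edgeR adjusted p = 0.000146, 0.000611 and 0.000967). NEDD4, a ubiquitin ligase, fell from 22.0 CPM in both shNTC libraries to 8.56 and 8.49 CPM in shHSF1 (log2 -1.35 ± 0.10, SE; edgeR adjusted p = 5.20e-06). SIRT1, the deacetylase that prolongs DNA binding of HSF1, had 43.0 CPM in both shNTC libraries and 21.9 and 22.2 CPM in shHSF1 (log2 -0.94 ± 0.08, SE; edgeR adjusted p = 9.66e-06). PRKAA2, a catalytic subunit of AMPK, fell by 0.87 ± 0.07 (edgeR adjusted p = 1.34e-05).

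Of 19 nuclear partners, 10 fell and 2 rose (median -0.18). RPA1, the single-strand DNA binding protein that opens chromatin for HSF1, had 211 and 219 CPM in shNTC and 38.5 and 46.8 CPM in shHSF1. It fell by log2 2.31 ± 0.09 (SE, n = 2 per group; edgeR adjusted p = 1.10e-07), the most of this list, and in PC9 parental and PC9-BrM3 it stood between 179 and 206 CPM. WDR5, a subunit of histone methyltransferase complexes, fell by 0.57 ± 0.07 (edgeR adjusted p = 8.89e-05), and TPR, a nuclear pore protein, by 0.48 ± 0.05 (edgeR adjusted p = 8.06e-05). DAXX, a histone H3.3 chaperone, rose by log2 0.28 ± 0.06 (SE; edgeR adjusted p = 0.00413). In a fit of all 8 libraries GSK3A, DAXX, TPR and DNAJB6 were no longer called (edgeR adjusted p from 0.0926 to 0.399).

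In the subline the same lists had few calls. Of 17 chaperones 1 rose, FKBP5, from 22.6 and 19.7 CPM in PC9 parental to 39.7 and 52.3 CPM in PC9-BrM3 (log2 1.13 ± 0.20, SE, n = 2 per group; edgeR adjusted p = 0.0308). That call was lost without either parental library (edgeR adjusted p = 0.134 and 0.227). Of 34 tested targets 2 rose and 1 fell, against 3.87% and 3.27% of all genes. HSPB8 had 3.13 and 3.31 CPM in PC9 parental and 22.8 and 24.6 CPM in PC9-BrM3 (log2 2.88 ± 0.19, SE; edgeR adjusted p = 0.00312). CRYAB, a small heat shock protein, rose from 0.159 and 0.0766 CPM to 0.845 and 1.35 CPM (log2 3.17 ± 0.52, SE; edgeR adjusted p = 0.0264), a call lost without PC9 parental replicate 2 (edgeR adjusted p = 0.102). RGS2, a regulator of G-protein signalling, fell from 2.43 and 2.35 CPM to 0.169 and 0.421 CPM (log2 -3.08 ± 0.46, SE; edgeR adjusted p = 0.0207). None of the 30 enzymes or 19 partners was called with edgeR. At an unadjusted edgeR p under 0.05 there were 3 enzymes and 2 partners, and DESeq2 called 0 and 1. Of all 17372 tested genes, 4368 had such a p, and DESeq2 called 2203. The counts in these lists moved with the library left out, as did those over all genes. More were called in the lists without either PC9-BrM3 library. The spread of those fits is that of the PC9 parental pair alone, and the cause of the shift was not tested. Over the 10 alternatives the median log2 difference ran from -0.06 to 0.21 for the targets and from -0.20 to -0.13 for the chaperones. In a fit of all 8 libraries 6 chaperones were called lower, and more of all genes were called too.

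**Figure D5:**
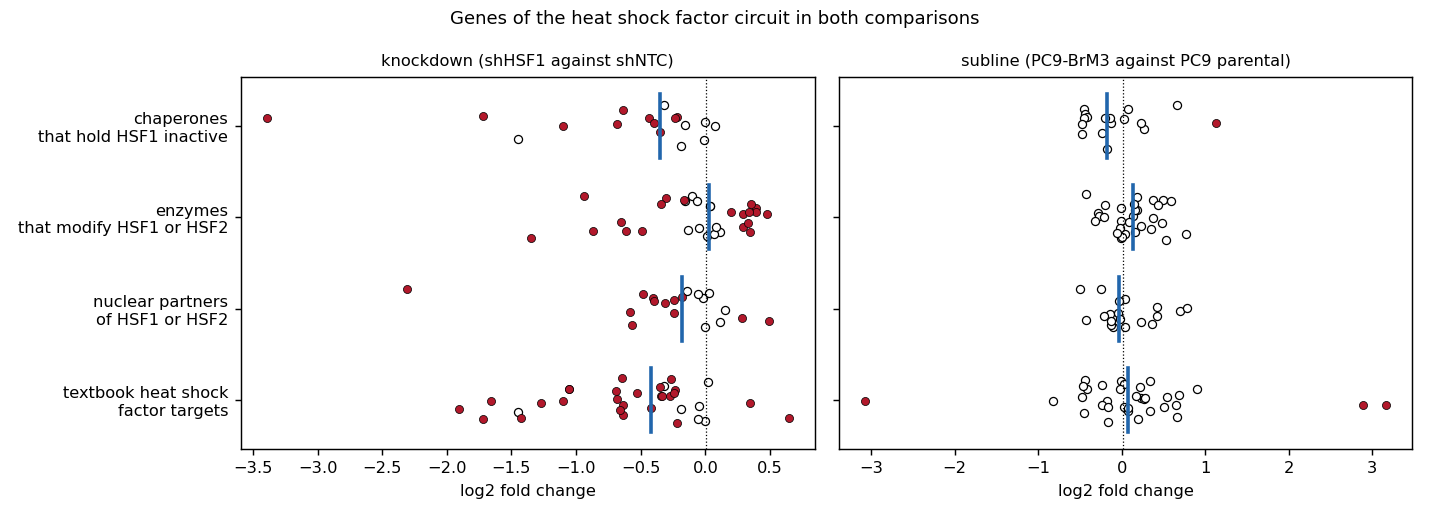
log2 fold changes of the tested genes of 4 lists in the knockdown (left) and the subline (right). Red points passed an adjusted p of 0.05, open points did not, blue bars are list medians and the dotted line is the median of all tested genes: 24 of 33 targets fell in the knockdown, while 3 of 34 were called in the subline.

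Promoters were also searched for heat shock elements. Whether HSF1 acts directly on the genes that changed was not tested. The search took GAANNTTC and TTCNNGAA as 2-unit elements, and GAANNTTCNNGAA and TTCNNGAANNTTC as 3-unit elements, which contain 2-unit ones. Both strands of RefSeq windows in GRCh38.p14, 250 bases before to 50 after each gene start, were read, and 15 of 17 chaperones, 24 of 30 enzymes, 16 of 19 partners and 32 of 35 targets had a window. Of all 35116 windows, 13.5% held a 2-unit and 0.49% a 3-unit element. Of 50 target windows 46% and 18% did, and of 23 chaperone windows 43.5% and 13%. The targets were listed as known targets of heat shock factors, and 11 of them are also listed chaperones. Higher shares in these 2 lists could be foreseen and are no finding of these data. Of 25 partner windows 16% held a 2-unit element, and of 38 enzyme windows 2.63%. The window of RPA1 held none. Counted by gene, 14 of 24 targets that fell had a 2-unit element in any of their windows. So did 4 of the 5 uncalled targets with a window and both that rose. These counts by gene cannot be set against the shares by window. HSF2 and HSBP1 held no match in this window, nor did any of the 12 windows of the 9 genes of the HSF family list that had one. HSF1 and HSF2BP, the other genes of that list, had no window and were not searched. Shown are the 250 bases before the start of the 2 non-target members called lower, and of 2 fallen targets with a 3-unit element, with matching letters in capitals: HSF2 (chr6:122399301-122399550, plus strand), HSBP1 (chr16:83807728-83807977, plus strand), SERPINH1 (chr11:75562003-75562252, plus strand) and HSP90AA1 (chr14:102087045-102087294, minus strand). Where a gene has 2 windows, the window with the 3-unit element is shown, and for HSF2 the first.
HSF2: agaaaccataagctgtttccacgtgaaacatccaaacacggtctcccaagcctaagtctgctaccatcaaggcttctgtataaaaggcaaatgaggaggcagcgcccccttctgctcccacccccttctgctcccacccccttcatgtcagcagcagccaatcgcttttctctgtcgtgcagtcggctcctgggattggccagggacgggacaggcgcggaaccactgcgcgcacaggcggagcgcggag
HSBP1: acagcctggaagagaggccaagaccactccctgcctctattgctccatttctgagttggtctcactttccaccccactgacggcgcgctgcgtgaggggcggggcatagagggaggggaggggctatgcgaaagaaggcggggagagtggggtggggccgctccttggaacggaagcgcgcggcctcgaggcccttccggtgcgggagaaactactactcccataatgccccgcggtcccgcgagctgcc
SERPINH1: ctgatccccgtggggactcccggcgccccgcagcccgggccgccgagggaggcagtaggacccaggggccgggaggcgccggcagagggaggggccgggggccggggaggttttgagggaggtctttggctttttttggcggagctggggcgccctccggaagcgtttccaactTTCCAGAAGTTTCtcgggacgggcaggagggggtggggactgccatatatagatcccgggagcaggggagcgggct
HSP90AA1: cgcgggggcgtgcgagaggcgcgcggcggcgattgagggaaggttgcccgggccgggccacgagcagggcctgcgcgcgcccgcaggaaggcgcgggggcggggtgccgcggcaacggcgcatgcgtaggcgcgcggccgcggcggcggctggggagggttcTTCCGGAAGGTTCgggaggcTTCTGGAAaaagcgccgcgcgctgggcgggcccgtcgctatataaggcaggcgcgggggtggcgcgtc
The SERPINH1 match begins 76 bases before the start, and HSP90AA1 has a 3-unit match from 88 bases before it and another 2-unit match from 68 bases. A match is a description of these letters and not a bound site.

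The genes whose level followed each member most closely were ranked by Pearson correlation of log2 CPM over the 8 libraries, among 18121 other genes. The libraries share lanes and treatments, and the ranking is a description. MED10, a Mediator subunit, was nearest to HSF1 (r = 0.995), with 80.4 and 75.4 CPM in shNTC, 30.4 and 28.8 in shHSF1 and 45.8 to 53.3 in the untransduced libraries. SLITRK5, a neuronal membrane protein (r = 0.987), and CUL9, a cullin (r = 0.985), followed. HSF2 was most like PRMT3, an arginine methyltransferase (r = 0.981), and the replication genes MCM3 (r = 0.962) and ORC1 (r = 0.957). MCM3 had 272 and 306 CPM in shNTC and 168 and 200 CPM in shHSF1. HSF4 was most like HRCT1 (r = 0.988), the glycerate kinase GLYCTK (r = 0.985) and the endolysosomal channel TPCN2 (r = 0.984), all higher in transduced than in untransduced libraries. HSBP1 was most like the glycosyltransferase GALNT6 (r = 0.993), the melanosome transport protein MREG (r = 0.992) and the mitochondrial ribosomal protein MRPL35 (r = 0.987). Their levels were highest in PC9 parental and lowest in shHSF1, as for HSBP1. By Spearman correlation 0 of the 3 genes stayed in the top 3 for HSBP1, 2 for HSF1 and HSF4, and all 3 for HSF2.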

How the data were processed

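RNA was measured in 8 libraries, grouped by sample title. The authors deposited raw counts per gene: per the file headers, featureCounts 1.6.1 counted reads over exons by gene ID, as reverse-stranded, on the Ensembl GRCh37 gene models. The submitters' processing notes also list Trim Galore, HISAT2 and DESeq2, without roles or versions. Multi-mapping and ambiguous reads are left out by default, which lowers near-identical and overlapping genes. A count of 0 allows up to 0.0529 to 0.0894 CPM (3 counts, counting error only). Symbols were found for 52181 of 63677 IDs. Genes were tested within each set of 4 libraries with edgeR 4.0.16 under R 4.3.3, after filterByExpr (at least 10 counts, total 15) and TMM scaling, by the robust quasi-likelihood F test with Benjamini-Hochberg adjustment over all tested genes, threshold 0.05. This leaves 2 residual degrees of freedom. CPM and RPKM use TMM over all 8 libraries, and correlations a prior count of 2. GC content came from GENCODE v29 by gene ID, promoters from RefSeq by symbol. The test was tried on simulated counts. Alternatives included RLE and upper-quartile factors, DESeq2 1.42.0, no filter, a replicate block, all 8 libraries, and each library left out. Other lengths for RPKM were added after seeing the data. Named genes were the members, the family list, nearest genes with a symbol, the 3 most correlated genes per member, and from the other lists the 3 smallest p per direction. A gene among these is not reported here. Members and lists were chosen with earlier results of these data known.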

Additional observations from a re-analysis of the deposited data

How the results depend on the processing

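HSF1 kept its knockdown call and HSF1 and HSF2 stayed uncalled in the subline under all 10 alternatives. HSF2 in the knockdown lost its call with upper-quartile factors (log2 -0.15), DESeq2 (-0.22), no filter (-0.23), all 8 libraries (-0.24) and any library left out (-0.25 to -0.18), and kept it with RLE factors and the replicate block (edgeR adjusted p = 0.0408). HSBP1 in the knockdown lost it with all 8 libraries (log2 -0.32) and ranged from -0.37 to -0.23 with a library left out. HSBP1 in the subline gained a call with no filter (-0.55), all 8 libraries (-0.54) and without either PC9-BrM3 library (left-out range -0.68 to -0.41). HSF4, never called, changed sign in the subline with no filter (-0.00067) and the replicate block (-0.021), and ranged from -0.45 to 0.33 with a library left out, and from -0.49 to 0.013 in the knockdown. HSF2 in the subline ranged from -0.076 to 0.020. Over all genes, 1639 were higher and 2234 lower in the knockdown with all 8 libraries. In the subline 1206 were higher and 997 lower with DESeq2, 1660 and 1499 with no filter, and 1991 and 1822 with all 8 libraries. Leaving out a library gave 182 to 4702 higher and 220 to 4526 lower, fewest without PC9 parental replicate 1 and most without PC9-BrM3 replicate 1. Textbook targets that fell in the knockdown numbered 14 to 26 over the 10 alternatives, and chaperones 7 to 13. The cause of these shifts was not tested. Same-numbered libraries did not deviate together over all genes (correlations 0.012 and 0.006). Whether the numbers pair them is not stated in the labels, and these correlations cannot decide it, since a small shared effect would leave them low.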
